A study of Homo sapiens with 6 samples.

Results

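The histone modifiers and chromatin remodellers described here were the genes whose symbol starts with KMT, SETD, KDM, KAT, HDAC, SMARC, ARID or CHD followed by a digit, or for SMARC a letter. Such a symbol was carried by 88 of the 16200 genes deposited; 2 of the KDM symbols were left out by the selection rule, so 86 genes are described. They form 6 classes: 17 KMT and SETD genes, 17 KDM genes, 8 KAT genes, 11 HDAC genes, 23 SMARC and ARID genes, and 10 CHD genes. Of the 86, 84 passed the filter on low counts and were tested; KDM4E and ARID3C averaged at most 0.06 TPM in either group and were not.

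Histones are marked by enzymes that add methyl or acetyl groups (writers, mostly the KMT, SETD and KAT proteins) and by enzymes that take them off (erasers, the KDM and HDAC proteins). ATP-driven remodellers then slide, evict or exchange nucleosomes. Most SMARC and some ARID proteins form the SWI/SNF (BAF) complexes, and the CHD proteins form a family of their own. In biliary tract cancers, genes of this machinery, ARID1A among them, are recurrently mutated. Many of these proteins are large, and their transcripts are long.

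RBE is an established human intrahepatic cholangiocarcinoma cell line. Poly(A) RNA was sequenced from 3 libraries of cells labelled sgKCNQ3, which carry a guide RNA against the potassium channel gene KCNQ3, and from 3 libraries of cells labelled NC. The kind of Cas protein the guide worked with, the sequence carried by NC cells and whether the sgKCNQ3 cells were a clone are not stated in the sources used here. Nothing says that the 3 libraries of a group were separate cultures, and the p-values then measure only the spread between these libraries, which may be technical. The comparison of sgKCNQ3 with NC asks which transcripts differ when KCNQ3 is targeted, here for the chromatin machinery.

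Total counts were 15685137 to 15722455 in sgKCNQ3 libraries and 15601283 to 16089500 in NC libraries. KCNQ3 itself had 222, 206 and 191 reads in sgKCNQ3, against 256, 257 and 252 reads in NC, and the groups did not overlap. Its log2 fold change was -0.33 (SE 0.0841, adjusted p = 0.00446 by edgeR's quasi-likelihood test), so the targeted transcript remained at a level 20.4% lower than in NC. On the deposited TPM the log2(TPM + 1) difference of KCNQ3 was -0.15, with adjusted p = 0.151 in limma. Of 10 cholangiocyte markers, 9 were above 1 TPM and summed to 4881 to 4989 TPM in sgKCNQ3 and 4183 to 4270 TPM in NC; ONECUT1 was at 0 TPM in NC and averaged 0.023 TPM in sgKCNQ3. Endothelial markers summed to at most 0.43 TPM in sgKCNQ3 and 0.18 TPM in NC, leukocyte markers to at most 1.59 TPM in sgKCNQ3 and 1.27 TPM in NC, and fibroblast markers to at most 2.8 TPM in sgKCNQ3 and 2.83 TPM in NC. Among hepatocyte markers, SERPINA1 alone exceeded 2 TPM (80.6 ± 4.4 TPM in sgKCNQ3 and 73.7 ± 0.777 TPM in NC; SD, n = 3 each).

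Chromatin genes moved upward more often than downward, and by small amounts. At an adjusted p of 0.05, 25 of the 84 tested genes rose in sgKCNQ3 relative to NC and 4 fell, while 14.0% of all 12565 tested genes rose, 15.1% fell and 29.1% did either. The 6 called genes with the largest rises were the remodeller CHD7, the acetyltransferase KAT6B, the SWI/SNF subunit ARID2, the remodellers CHD9 and CHD6, and the methyltransferase KMT2C; the 4 falls were the demethylase KDM6B, the DNA-binding protein ARID3B, the SWI/SNF core subunit SMARCB1 and the methyltransferase KMT5A. Log2 fold changes ran from -0.30 (KDM6B) to 0.43 (CHD7), so no gene reached a change of 0.5. In bulk RNA, fewer cells carrying a transcript and less of it per cell cannot be told apart.

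The median log2 fold change of the 84 genes was 0.071, beside -0.0074 over all tested genes, and 58 were above 0 and 26 below. Together the 86 genes took 0.4996% to 0.504% of all counts in sgKCNQ3 libraries and 0.461% to 0.463% in NC libraries. In CPM (counts scaled to a common library total) the groups of 3 libraries did not overlap for 40 of the 84 genes (47.6%), beside 41.7% of all tested genes. Of the called genes 86.2% rose, against 48.2% of the calls over all tested genes. On the deposited TPM, 34 of the 84 rose and 0 fell. Over all tested genes 2588 rose and 613 fell on TPM, so that 80.9% of those calls were rises.

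**Figure D1:**
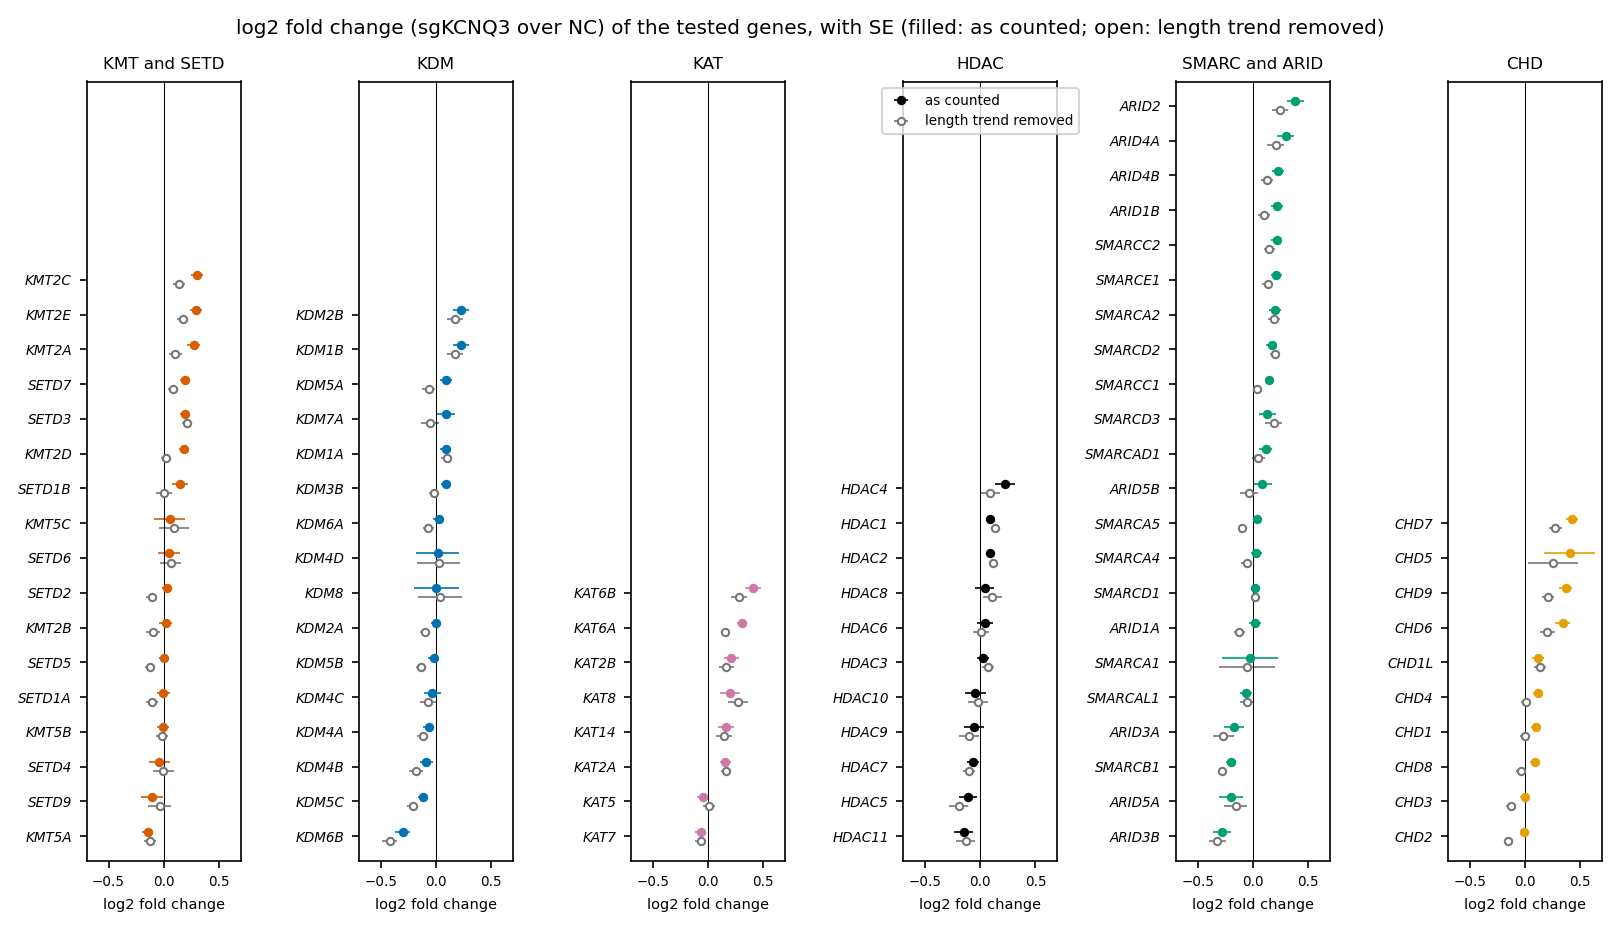
Log2 fold change of sgKCNQ3 over NC (x axis) for each of the 84 tested genes, by class, with bars of 1 SE; filled points are as counted and open points have each library's trend over transcript length removed. Filled points spread from -0.30 for KDM6B to 0.43 for CHD7, and in the classes with long transcripts most open points lie to the left of the filled ones.

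Transcript length moved with the comparison across the whole table, and the chromatin genes are long. Transcript length here is the length implied by the deposited counts and FPKM. It can differ from that of the longest protein-coding transcript in the GENCODE annotation. The implied and GENCODE lengths were 2191 and 9874 nt for HDAC2, and 20371 and 19419 nt for KMT2D. Over all 12565 tested genes Spearman's rho between log2 fold change and transcript length was 0.34, and over the 84 chromatin genes it was 0.38; genes are not independent replicates, and these values are descriptions. Each library carried the trend: the deviation of a library from the mean of all 6 correlated with length at 0.29, 0.21 and 0.27 in the sgKCNQ3 libraries and at -0.19, -0.35 and -0.24 in the NC libraries. GC content went the other way, at -0.26 over all genes and -0.37 over the chromatin genes. Their median transcript length was 4.97 kb, and 42 of the 84 lay in the longest quintile (the longest 20% of all tested genes).

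The chromatin genes were then read against genes of their own length. In the longest quintile, 4.98 kb and above, 16 of 42 chromatin genes rose (38.1%) and 1 fell, beside 32.8% and 5.65% of all genes of that length. Their median log2 fold change there was 0.093, against 0.10 for all genes of that length. In the next quintile, from 3.45 to 4.98 kb, 5 of 14 rose and 2 fell, beside 18.4% and 10.4% of all genes, and the medians were 0.0077 and 0.038. The longest quintile, with the most chromatin genes, thus had a share of rises near its background. From 2.37 to 3.45 kb 3 of 14 rose and 1 fell, beside 9.91% and 15.0%. The 2 shortest quintiles held 11 and 3 chromatin genes. In the longer of them 1 rose and 0 fell, beside 5.97% and 21.3% of all genes, and in the shortest 0 rose and 0 fell, beside 3.02% and 23.0%.

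**Figure D2:**
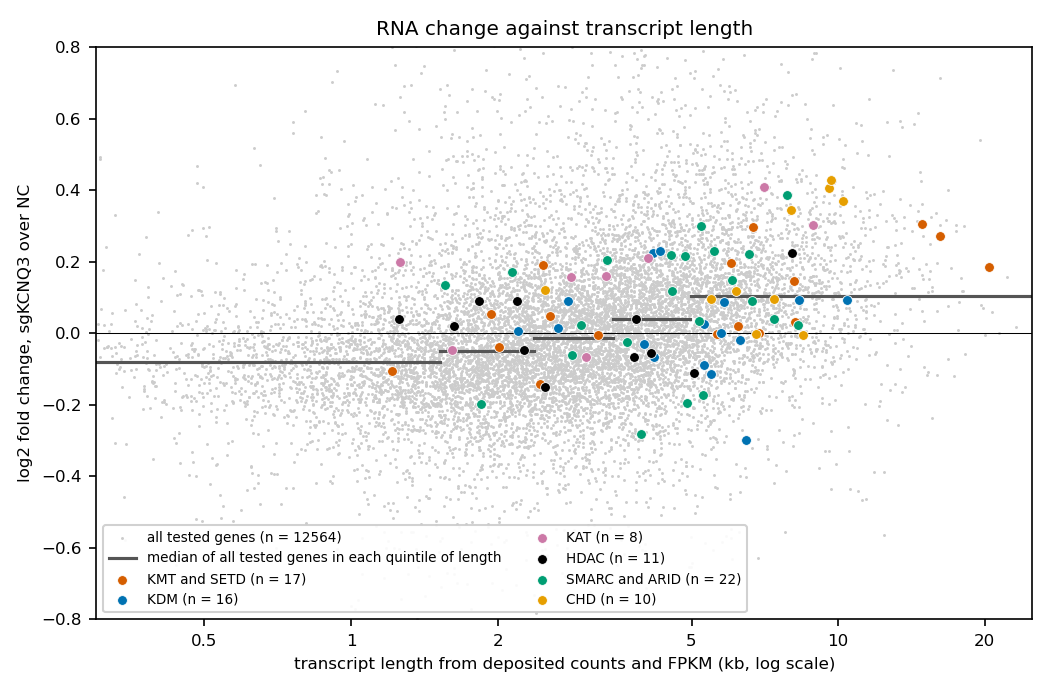
Log2 fold change of sgKCNQ3 over NC (y axis, shown from -0.8 to 0.8) against transcript length in kb (log axis, shown from 0.3 to 25) for all tested genes in grey and for the chromatin genes in colour by class. The horizontal lines are the medians of all tested genes in each quintile of length, which step up from -0.081 in the shortest quintile to 0.10 in the longest.

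**Figure D3:**
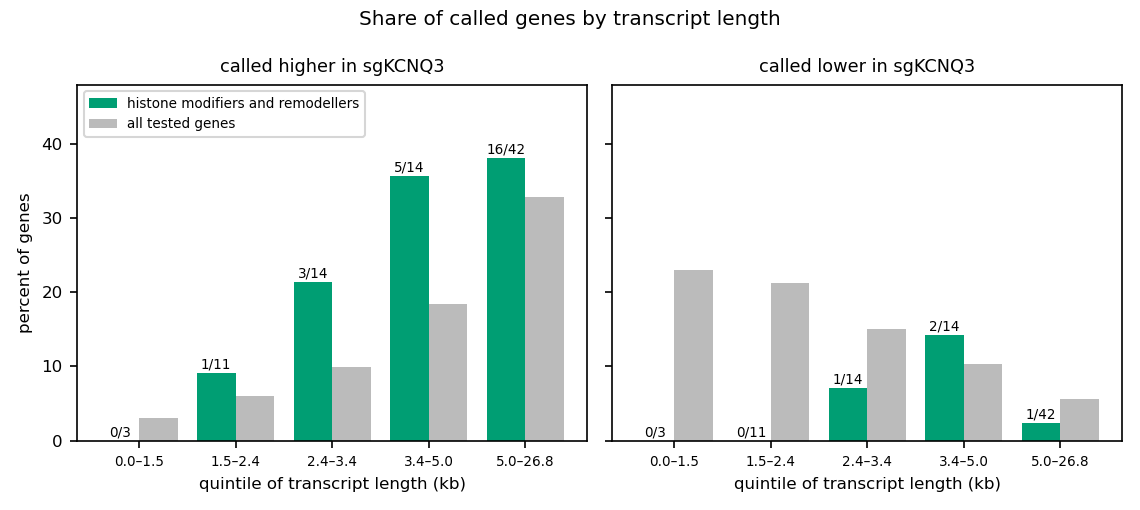
Percent of genes called higher (left panel) and lower (right panel) in sgKCNQ3 than in NC, in quintiles of transcript length (kb), for the chromatin genes (green, with the count called of the count tested above each bar) and for all tested genes (grey). The longest quintile holds 42 chromatin genes, of which 38.1% rose, beside 32.8% of all genes of that length.

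When each library's trend over length was removed before the test, the lean of the chromatin genes shrank and 18 of the 84 rose and 10 fell, so that 64.3% of their calls were rises. Over all genes the same fit called 23.7%, with 9.44% higher and 14.3% lower. The median log2 fold change of the chromatin genes was then 0.0061, beside -0.013 over all tested genes. Of the 25 rises 15 were still called and 10 were not: ARID1B, ARID4B, SMARCC1, CHD4, KAT2B, KDM1B, KDM2B, KMT2A, KMT2D and SETD7. Of the 4 falls 3 were still called; KMT5A was not. New calls were the rises of HDAC1, HDAC2 and KAT8 and the falls of CHD2, CHD3, KDM4B, KDM5B, KDM5C, SETD5 and ARID3A. With the trends over both length and GC content removed, 19 rose and 9 fell, the median was 0.033, and over all genes 25.8% were called, 9.86% higher and 15.9% lower. There were 14 rises and 3 falls called in all 3 fits. What produced the length trend was not tested, and the sums of the deposited FPKM values moved with it, at 630330 to 642510 in sgKCNQ3 libraries and 656810 to 668730 in NC libraries.

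The methyltransferases of the KMT and SETD class showed 6 rises and 1 fall among 17 genes, beside 14.0% and 15.1% of all tested genes. Their median log2 fold change was 0.048 and their median transcript length 6.03 kb. In the longest quintile lay 10 of the 17 genes and 5 of the rises, and 32.8% of all tested genes there rose. With the length trend removed 3 rose and 1 fell, beside 9.44% and 14.3% of all tested genes. The longest transcripts of all the chromatin genes are here, those of the KMT2 (MLL) proteins, which methylate histone H3 at promoters and enhancers. KMT2C, an enhancer methyltransferase, had 58.6, 57.6 and 61.3 CPM in sgKCNQ3 libraries, against 48.2, 46.4 and 49.0 CPM in NC libraries. No sgKCNQ3 library was below an NC library. KMT2C rose by 0.31 on the log2 scale (SE 0.0518, adjusted p = 8.96e-05), and by 0.14 (adjusted p = 0.0449) with the length trend removed. Copies of part of KMT2C exist elsewhere in the genome, and the sources used here do not say how multiply mapped reads were counted.

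KMT2E, a PHD-finger protein without known methyltransferase activity of its own, had 62.4, 67.5 and 65.6 CPM in sgKCNQ3, against 52.8, 49.9 and 56.6 CPM in NC. These groups, too, were apart, with a log2 fold change of 0.30 (SE 0.054, adjusted p = 2.07e-04) as counted and 0.17 (adjusted p = 0.0191) with the length trend removed. KMT2A, the founding member of the MLL family, had 51.1, 49.9 and 53.6 CPM in sgKCNQ3, against 42.4, 45.1 and 40.5 CPM in NC. It rose by 0.27 (SE 0.0562, adjusted p = 7.14e-04) as counted, and with the length trend removed its log2 fold change was 0.11 (adjusted p = 0.173). KMT2A has a transcript of 16.2 kb and KMT2D, the paralogue of KMT2C, one of 20.4 kb. KMT2D likewise rose as counted (0.18, adjusted p = 0.00488) and not with the trend removed (0.02, adjusted p = 0.792).

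SETD3, which methylates a histidine of actin rather than a histone, has a short transcript of 2.47 kb, and its rise did not depend on the length trend. It had 155.2, 159.7 and 145.2 CPM in sgKCNQ3, against 138.1, 132.1 and 133.0 CPM in NC. The log2 fold change was 0.19 (SE 0.043, adjusted p = 0.00163) as counted and 0.21 (adjusted p = 0.00102) with the trend removed. Per length it was the most abundant of its class, at 98.0 TPM in sgKCNQ3 and 81.8 TPM in NC. SETD7, a lysine methyltransferase of histone and other proteins, rose by 0.20 (adjusted p = 0.00332) as counted and stood at 0.09 (adjusted p = 0.193) with the trend removed. KMT5A, which monomethylates histone H4, had 73.1, 75.2 and 67.7 CPM in sgKCNQ3 and 81.6, 82.7 and 74.3 CPM in NC, which overlap. It fell by 0.14 on the log2 scale (adjusted p = 0.0377), with the trend removed its log2 fold change was -0.12 (adjusted p = 0.0799), and it was not called without NC replicate 1 or 2 or sgKCNQ3 replicate 1 or 3. The SET1 catalytic subunits SETD1A and SETD1B, the H3K36 methyltransferase SETD2, KMT2B, KMT5B, KMT5C, SETD4, SETD5, SETD6 and SETD9 were not called as counted, with log2 fold changes from -0.11 (SETD9) to 0.15 (SETD1B).

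The demethylases had few calls, and their median changed sign with the length correction. Of 16 tested KDM genes 2 rose and 1 fell, beside 14.0% and 15.1% over all genes, with a median log2 fold change of 0.010. In the fit with the length trend removed 0 rose, 4 fell and the median was -0.066. That fit called 9.44% of all tested genes higher and 14.3% lower. None of the 9 KDM genes in the longest quintile of length rose, against 16 of all 42 chromatin genes there; the difference between classes was not tested. KDM6B, which removes methyl groups from H3K27 and is known as an inducible gene, had 24.6, 28.4 and 26.7 CPM in sgKCNQ3 libraries, against 31.5, 32.1 and 34.5 CPM in NC libraries. The groups were apart. KDM6B fell by 0.30 on the log2 scale (SE 0.0673, adjusted p = 0.00153), and by 0.42 (adjusted p = 5.75e-05) with the length trend removed.

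KDM2B, which binds unmethylated CpG islands and recruits a variant Polycomb complex, had 27.1, 28.96 and 25.2 CPM in sgKCNQ3, against 21.8, 23.4 and 24.0 CPM in NC. KDM1B, a flavin-dependent H3K4 demethylase, had 21.3, 23.4 and 22.5 CPM in sgKCNQ3, against 18.8, 19.3 and 19.4 CPM in NC. For neither gene did the groups overlap. KDM2B rose by 0.23 (SE 0.071, adjusted p = 0.0164) and KDM1B by 0.22 (SE 0.0719, adjusted p = 0.0204); with the trend removed both log2 fold changes were 0.17, with adjusted p = 0.0781 for KDM2B and 0.0783 for KDM1B. Without NC replicate 1, and again without sgKCNQ3 replicate 2, neither was called.

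The other H3K27 demethylase, KDM6A, did not follow KDM6B: it averaged 62.3 ± 1.03 CPM in sgKCNQ3 and 61.2 ± 2.55 CPM in NC, a log2 fold change of 0.02 (SE 0.0497, adjusted p = 0.743). KDM5C, an H3K4 demethylase, had 68.9, 65.5 and 69.8 CPM in sgKCNQ3, against 72.03, 74.6 and 74.5 CPM in NC, and its groups were apart. Its log2 fold change was -0.11 (adjusted p = 0.07) as counted and -0.21 (adjusted p = 0.00184) with the trend removed. The related KDM5B (log2 fold change -0.13, adjusted p = 0.0445) and the H3K9 demethylase KDM4B (-0.18, adjusted p = 0.0294) were called lower with the length trend removed, and neither was as counted. KDM1A, KDM2A, KDM3B, KDM4A, KDM4C, KDM4D, KDM5A, KDM7A and KDM8 passed the test in neither fit.

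The acetyltransferases leaned upward with and without the length correction. Of 8 KAT genes 4 rose and 0 fell, beside 14.0% and 15.1% of all tested genes, with a median log2 fold change of 0.18. With the length trend removed 4 rose and 0 fell, beside 9.44% and 14.3% of all tested genes, with a median of 0.16. The median transcript length of the KAT class, 3.19 kb, is below that of every class but HDAC. KAT6A and KAT6B (MOZ and MORF), the paralogous catalytic subunits of the BRPF-containing acetyltransferase complexes, led the class. KAT6A had 109.6, 109.4 and 107.8 CPM in sgKCNQ3, against 89.5, 83.5 and 91.9 CPM in NC. KAT6B had 22.4, 24.97 and 23.5 CPM in sgKCNQ3, against 18.0, 17.8 and 17.7 CPM in NC. In both genes every sgKCNQ3 library was above every NC library. KAT6A rose by 0.30 (SE 0.0446, adjusted p = 1.55e-05) and KAT6B by 0.41 (SE 0.0727, adjusted p = 1.62e-04), and with the trend removed by 0.16 (adjusted p = 0.0105) and 0.28 (adjusted p = 0.00628).

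KAT2A (GCN5), the acetyltransferase of the SAGA and ATAC coactivators, had 70.9, 72.7 and 72.7 CPM in sgKCNQ3, against 63.3, 67.4 and 63.4 CPM in NC. The libraries were apart and the log2 fold change was 0.16 as counted (SE 0.0476, adjusted p = 0.0155) and 0.16 with the trend removed (adjusted p = 0.0143). Its paralogue KAT2B (PCAF) rose by 0.21 (SE 0.0692, adjusted p = 0.0244) as counted and stood at 0.16 (adjusted p = 0.088) with the trend removed. KAT8 (MOF), which acetylates histone H4 and has a transcript of 1.26 kb, had 12.3, 13.1 and 12.4 CPM in sgKCNQ3 and 11.7, 10.2 and 10.99 CPM in NC. KAT8 had a log2 fold change of 0.20 (adjusted p = 0.103) as counted and 0.27 (adjusted p = 0.0349) with the trend removed. KAT5 (TIP60), KAT7 (HBO1) and KAT14 were called in neither fit. Without NC replicate 1, and again without NC replicate 3, KAT2A and KAT2B lost their calls and 2 rises were left; without sgKCNQ3 replicate 3 KAT2B lost its call and KAT14 gained one.

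No deacetylase passed the test as counted: of 11 HDAC genes 0 rose and 0 fell, with a median log2 fold change of 0.020. Of all tested genes 14.0% rose and 15.1% fell as counted, and 9.44% rose and 14.3% fell with the length trend removed. By the length implied by counts and FPKM the HDAC class has the lowest median, 2.50 kb, and 2 of its genes lie in the longest quintile. HDAC1 and HDAC2, the paired catalytic subunits of the SIN3, NuRD and CoREST corepressors, were per length the most abundant chromatin genes of all. HDAC1 averaged 186 TPM in sgKCNQ3 and 165 TPM in NC, and HDAC2 averaged 133 TPM in sgKCNQ3 and 121 TPM in NC. In counts HDAC1 had 218.6, 214.2 and 210.3 CPM in sgKCNQ3, against 200.2, 198.9 and 204.9 CPM in NC, and the groups did not overlap. The log2 fold change of HDAC1 was 0.09 (95% interval of the fit 0.017 to 0.16, adjusted p = 0.073) and that of HDAC2 0.09 (adjusted p = 0.0843). With the length trend removed HDAC1 rose by 0.13 (adjusted p = 0.0117) and HDAC2 by 0.12 (adjusted p = 0.0262); with GC content removed as well, HDAC1 rose by 0.13 (adjusted p = 0.00699) and HDAC2 was at 0.06 (adjusted p = 0.206). Of the others, the class IIa gene HDAC4 had a log2 fold change of 0.22 (adjusted p = 0.0701), and HDAC3, HDAC5, HDAC6, HDAC7, HDAC8, HDAC9, HDAC10 and HDAC11 lay between -0.15 and 0.04. Without NC replicate 1, and again without sgKCNQ3 replicate 1, HDAC4 was called higher.

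**Figure D4:**
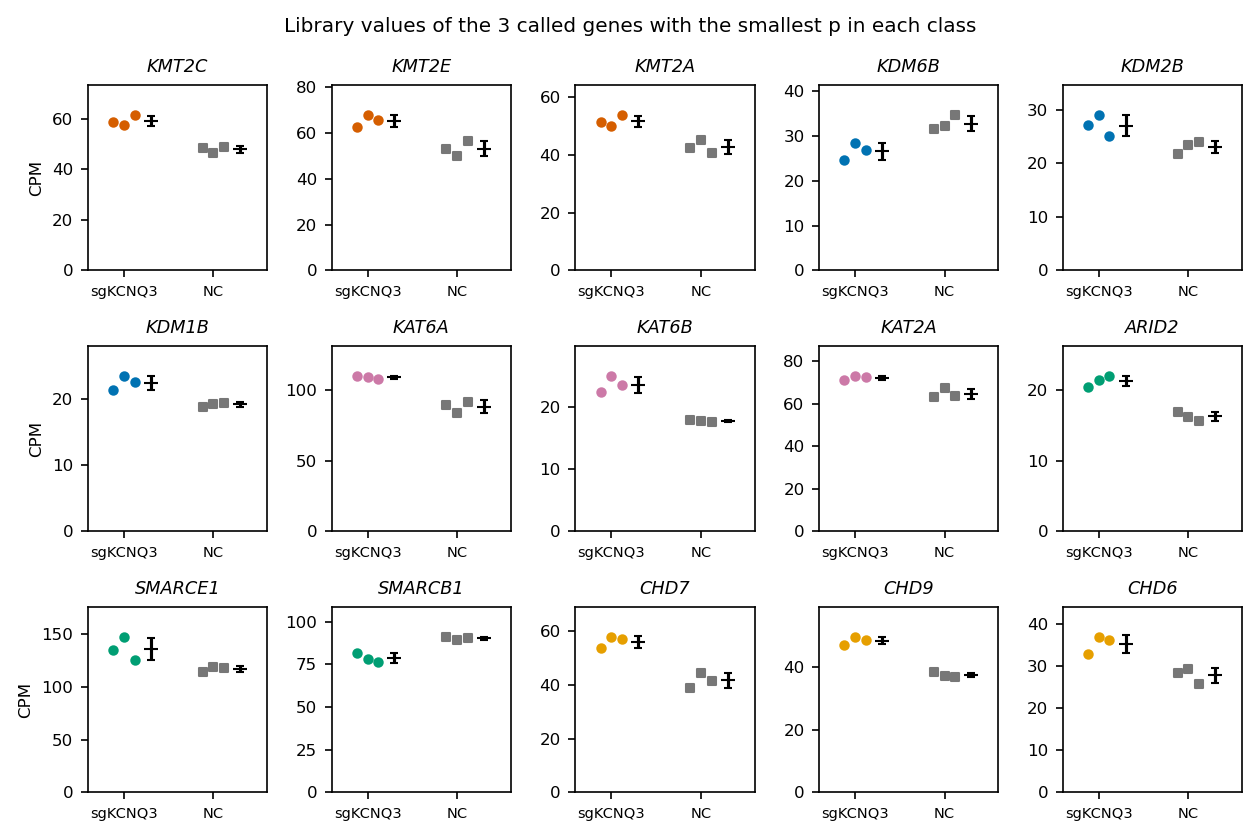
CPM with TMM-scaled library sizes (y axis, from 0) in each of the 3 sgKCNQ3 libraries (coloured circles) and 3 NC libraries (grey squares), with the mean and SD beside them, for the 3 called genes with the smallest p in each class that had any. In each panel the groups are apart, higher in sgKCNQ3 in all but KDM6B and SMARCB1.

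Among the 22 tested SMARC and ARID genes 9 rose and 2 fell, with a median log2 fold change of 0.10; with the length trend removed 6 rose and 3 fell, with a median of 0.031. The 12 SWI/SNF subunits among them had 7 rises and 1 fall and a median of 0.16. With the trend removed these subunits had 5 rises, 1 fall and a median of 0.12. Of all tested genes 14.0% rose and 15.1% fell as counted, and 9.44% rose and 14.3% fell with the trend removed. ARID2, the AT-rich interaction subunit that defines the PBAF form of the complex, had 20.5, 21.5 and 21.96 CPM in sgKCNQ3, against 16.9, 16.2 and 15.7 CPM in NC. All 3 sgKCNQ3 libraries lay above all 3 NC libraries. ARID2 rose by 0.39 (SE 0.0748, adjusted p = 3.71e-04) as counted and by 0.25 (adjusted p = 0.0163) with the trend removed.

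SMARCE1 (BAF57), a DNA-binding core subunit, had 135.0, 146.6 and 125.1 CPM in sgKCNQ3, against 113.6, 118.4 and 118.1 CPM in NC. Its rise was 0.22 (SE 0.0485, adjusted p = 0.00156), and 0.14 (adjusted p = 0.0441) with the trend removed. SMARCB1 (INI1, BAF47), the core subunit whose loss defines rhabdoid tumours, went the other way. It had 81.6, 78.2 and 76.3 CPM in sgKCNQ3, against 90.7, 89.4 and 90.4 CPM in NC. SMARCB1 fell by 0.20 (SE 0.0447, adjusted p = 0.00179) as counted and by 0.28 (adjusted p = 6.42e-05) with the trend removed; on the TPM scale, at 25.7 TPM in sgKCNQ3 and 27.6 TPM in NC, it was not called.

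Of the scaffold paralogues, SMARCC2 (BAF170) rose by 0.22 (adjusted p = 0.00265) and kept its call with the trend removed (0.15, adjusted p = 0.038), while SMARCC1 (BAF155) rose by 0.15 (adjusted p = 0.00584) and lost it (0.04, adjusted p = 0.519). SMARCD2, an accessory subunit with a transcript of 2.14 kb, rose by 0.17 (adjusted p = 0.0073) as counted and 0.20 (adjusted p = 0.00215) with the trend removed; without NC replicate 1 its adjusted p was 0.0528. Of the 2 alternative ATPases, SMARCA2 (BRM) rose by 0.20 (SE 0.0537, adjusted p = 0.0055), and on TPM it was not called; SMARCA4 (BRG1) had a log2 fold change of 0.03 (SE 0.0489, adjusted p = 0.641). ARID1B rose by 0.22 (adjusted p = 0.00365) as counted and stood at 0.10 (adjusted p = 0.194) with the trend removed. Its paralogue ARID1A, the subunit most often mutated in this tumour type, had 61.8, 66.3 and 64.1 CPM in sgKCNQ3 and 59.5, 65.4 and 64.5 CPM in NC. These overlap, with a log2 fold change of 0.02 (SE 0.0512, adjusted p = 0.784).

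Outside SWI/SNF, ARID4A and ARID4B, DNA-binding partners of the SIN3 deacetylase complex, rose by 0.30 (adjusted p = 0.00428) and 0.23 (adjusted p = 0.00349) as counted; with the trend removed ARID4A stayed called (0.21, adjusted p = 0.0477) and ARID4B did not (0.13, adjusted p = 0.0948). ARID3B, a DNA-binding factor of the Bright family, had 18.2, 15.1 and 15.5 CPM in sgKCNQ3, against 19.5, 19.9 and 19.9 CPM in NC, a fall of 0.28 (SE 0.0806, adjusted p = 0.01). The related ARID3A had a log2 fold change of -0.17 (adjusted p = 0.16) as counted and -0.27 (adjusted p = 0.037) with the trend removed. ARID5A, ARID5B, SMARCA1, SMARCA5, SMARCAD1, SMARCAL1, SMARCD1 and SMARCD3 were called neither as counted nor with the length trend removed.

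The CHD remodellers held the gene with the largest rise, CHD7, and, with a median of 7.70 kb, had the highest median transcript length of the 6 classes: 9 of the 10 lie in the longest quintile. As counted 4 rose and 0 fell, beside 14.0% and 15.1% of all tested genes, with a median log2 fold change of 0.12. Of all tested genes in the longest quintile 32.8% rose. With the length trend removed 3 CHD genes rose and 2 fell, beside 9.44% and 14.3% of all tested genes, with a median of 0.071. The 3 that rose in both fits, CHD7, CHD9 and CHD6, belong to the same subfamily, together with CHD8. CHD7, the gene mutated in CHARGE syndrome, had 53.5, 57.6 and 57.1 CPM in sgKCNQ3, against 39.0, 44.4 and 41.6 CPM in NC. Its lowest sgKCNQ3 library lay above its highest NC library. CHD7 rose by 0.43 (SE 0.0571, adjusted p = 4.09e-06), a level 34.6% higher, and by 0.28 (adjusted p = 0.00113) with the trend removed.

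CHD9 had 47.1, 49.4 and 48.5 CPM in sgKCNQ3, against 38.3, 37.1 and 36.9 CPM in NC, and CHD6 had 32.7, 36.7 and 36.2 CPM in sgKCNQ3, against 28.3, 29.2 and 25.8 CPM in NC. Neither gene's groups overlapped. CHD9 rose by 0.37 (SE 0.0547, adjusted p = 1.73e-05) and CHD6 by 0.34 (SE 0.0667, adjusted p = 3.98e-04), and with the trend removed by 0.21 (adjusted p = 0.0055) and 0.20 (adjusted p = 0.03). CHD8, the other gene of that subfamily, averaged 92.6 ± 1.79 CPM in sgKCNQ3 and 86.7 ± 4.16 CPM in NC, with a log2 fold change of 0.09 (adjusted p = 0.126) as counted and -0.04 (adjusted p = 0.57) with the trend removed.

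The NuRD ATPases differed: CHD4 rose by 0.12 (adjusted p = 0.0377) as counted and was at 0.01 (adjusted p = 0.947) with the trend removed, while CHD3 was at -0.0038 (adjusted p = 0.957) as counted and fell by 0.13 (adjusted p = 0.0313) with the trend removed. Without NC replicate 3, sgKCNQ3 replicate 2 or sgKCNQ3 replicate 3, CHD4 was not called, and without sgKCNQ3 replicate 3 CHD1L was. CHD2 had 105.9, 110.0 and 100.1 CPM in sgKCNQ3 and 105.0, 106.4 and 105.8 CPM in NC. Its groups overlapped, with a log2 fold change of -0.0057 (adjusted p = 0.936), and with the trend removed it fell by 0.15 (adjusted p = 0.0143). CHD1 and CHD1L were called neither as counted nor with the length trend removed, nor was CHD5, a mainly neuronal CHD protein, which at 0.31 TPM in sgKCNQ3 and 0.22 TPM in NC had the lowest level of the tested genes and a log2 fold change of 0.41 (SE 0.231, adjusted p = 0.194).

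**Figure D5:**
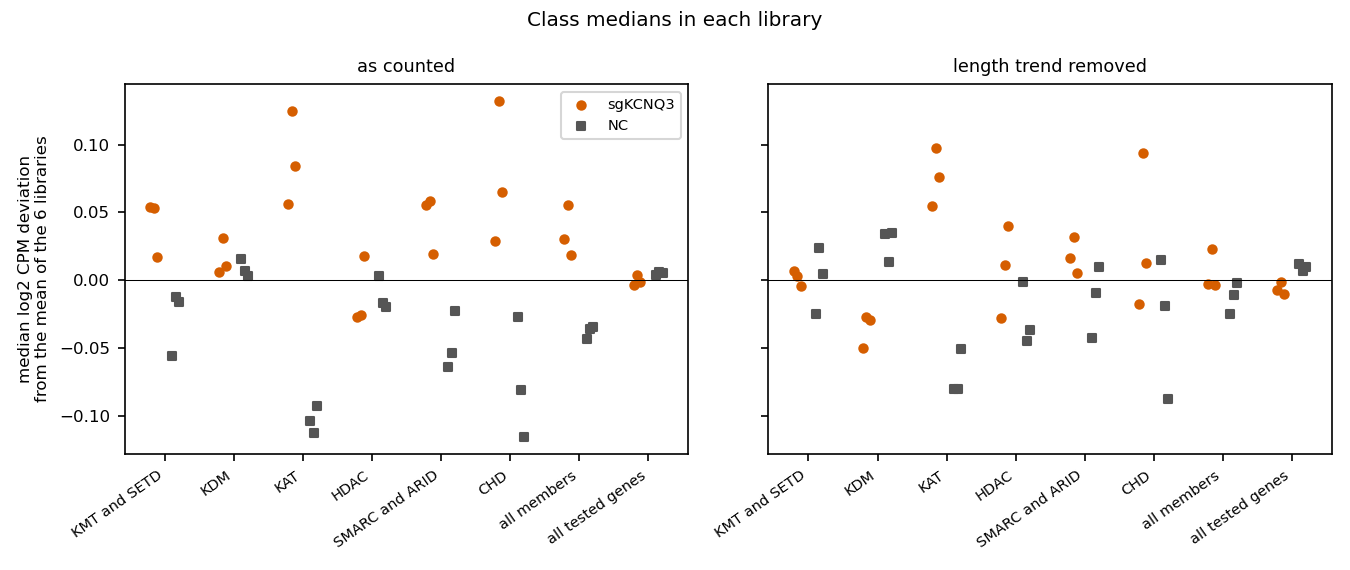
Median over each class of the log2 CPM deviation from the mean of the 6 libraries (y axis) in each sgKCNQ3 library (orange circles) and NC library (grey squares), as counted (left panel) and with each library's length trend removed (right panel). The KAT medians of the 3 sgKCNQ3 libraries lie above those of the 3 NC libraries in both panels. In the right panel the KDM medians of the sgKCNQ3 libraries lie below those of the NC libraries. The medians of all tested genes do the same there, by a narrower gap.

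Class medians in each library show which leans were shared by all libraries. As counted, the KAT median deviated from the mean of the 6 libraries by 0.056, 0.12 and 0.084 on the log2 scale in sgKCNQ3, against -0.10, -0.11 and -0.092 in NC. With the length trend removed these were 0.054, 0.097 and 0.076 in sgKCNQ3 and -0.080, -0.080 and -0.050 in NC, so the groups stayed apart. The KDM median overlapped between the groups as counted. With the trend removed it was -0.050, -0.027 and -0.029 in sgKCNQ3 and 0.034, 0.014 and 0.035 in NC. The median of all tested genes also overlapped as counted and was apart with the trend removed, by a narrower gap. It was then -0.0073, -0.0013 and -0.0097 in sgKCNQ3 and 0.012, 0.0072 and 0.0097 in NC. For KMT and SETD, HDAC, SMARC and ARID, and CHD the library medians of the groups overlapped once the trend was removed. No test was made between classes, since their members are genes and not replicates.

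The length assigned to a gene could be compared between libraries, since the ratio of counts to FPKM is the length that the authors' quantification used for that gene in each library. Among 71 chromatin genes with at least 3 FPKM this length was greater in every sgKCNQ3 library than in every NC library for 23 genes and smaller for 3, which is 36.6% together, beside 54.2% of the 9337 tested genes with at least 3 FPKM. Over those 9337 genes the assigned length was greater for 4890 and smaller for 173, so the shift ran through the whole table. For most genes it was small, with a median log2 ratio of sgKCNQ3 over NC length of 0.0089 over the 9337 genes and 0.0076 over the 71. An absolute log2 ratio of at least 0.1 was reached by 2.71% of the 9337 genes and by 5 of the 71 (7.04%). SMARCA2 had the largest ratio among the chromatin genes whose groups were apart, at 3.84, 3.46 and 3.38 kb in sgKCNQ3, against 3.20, 3.04 and 3.20 kb in NC. CHD7 followed, at 9.73, 9.97 and 10.4 kb in sgKCNQ3, against 9.09, 9.38 and 9.23 kb in NC. These 2 genes were picked after their values were seen. A longer assigned length lowers TPM for a given count: SMARCA2 averaged 31.0 TPM in sgKCNQ3 and 28.4 TPM in NC, while its counts differed by 0.20 on the log2 scale.

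Promoter sequence is shown for 2 chromatin genes that rose and 2 that fell, all of them called in all 3 fits. They had the largest changes among the genes that could be printed here, not among all genes with such calls. CHD7 (0.43) and ARID2 (0.39) rose by more than CHD9 (0.37), and ARID3B (-0.28) fell by more than SMARCB1 (-0.20). For ARID2 and ARID3B the RefSeq promoter set used here held no entry with the 250 bases. The sequence of CHD7 is left out, which does not mean that CHD7 lacks an entry. The promoters shown let members moving in opposite directions be read side by side. Each is the 250 bases before the annotated start on the plus strand of GRCh38.p14, at chr10:74825005-74825254 for KAT6B, chr16:53054741-53054990 for CHD9, chr17:7833967-7834216 for KDM6B and chr22:23786716-23786965 for SMARCB1. Capitals mark matches, on either strand, to the motifs searched: the GC box GGGCGG bound by SP and KLF factors, the ETS core CCGGAA, the E-box CACGTG, the cAMP-response element TGACGTCA, the AP-1 site TGACTCA and the TATA box TATAAA. KAT6B and CHD9 rose, and KDM6B and SMARCB1 fell.

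KAT6B: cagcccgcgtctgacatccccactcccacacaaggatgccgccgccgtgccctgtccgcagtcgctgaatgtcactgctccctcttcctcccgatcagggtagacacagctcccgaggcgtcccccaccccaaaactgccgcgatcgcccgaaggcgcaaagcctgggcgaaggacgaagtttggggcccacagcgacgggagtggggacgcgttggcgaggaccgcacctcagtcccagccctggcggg
CHD9: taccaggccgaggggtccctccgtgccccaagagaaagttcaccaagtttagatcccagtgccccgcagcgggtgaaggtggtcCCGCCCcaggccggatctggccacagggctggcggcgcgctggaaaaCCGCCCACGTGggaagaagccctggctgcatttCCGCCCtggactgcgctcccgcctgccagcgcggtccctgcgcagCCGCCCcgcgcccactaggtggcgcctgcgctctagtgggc
KDM6B: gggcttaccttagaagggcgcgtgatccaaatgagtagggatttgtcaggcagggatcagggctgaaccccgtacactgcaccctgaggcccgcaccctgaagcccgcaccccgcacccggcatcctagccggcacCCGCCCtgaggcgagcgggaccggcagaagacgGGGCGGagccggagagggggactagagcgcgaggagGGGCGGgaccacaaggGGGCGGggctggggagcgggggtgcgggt
SMARCB1: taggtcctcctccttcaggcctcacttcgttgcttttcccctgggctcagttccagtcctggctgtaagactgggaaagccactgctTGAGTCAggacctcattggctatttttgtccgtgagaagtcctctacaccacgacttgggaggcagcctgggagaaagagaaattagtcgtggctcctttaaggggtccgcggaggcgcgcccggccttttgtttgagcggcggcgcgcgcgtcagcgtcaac

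The KAT6B window held none of the motifs searched. The CHD9 window held 4 GC boxes, of which 1 overlaps an E-box, and the KDM6B window held 4 GC boxes. The SMARCB1 window held 1 AP-1 site and no GC box. Over the 72 chromatin genes with a promoter entry a GC box was present in 61.1%, beside 67.9% of 10353 tested genes with an entry, and an ETS core in 26.4%, beside 25.6%. A GC box was in 12 of 19 promoters of genes that rose, 2 of 3 of those that fell and 30 of 50 of those not called. An AP-1 site was in 0 of the 19, 1 of the 3 and 2 of the 50. A match describes letters in the window and shows no binding.

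The proteins that work with these enzymes were read from lists of complex partners. The lists described here and in the closing observations together hold 179 genes, of which 177 were tested: 44 rose (24.9%) and 20 fell (11.3%), beside 14.0% and 15.1% of all tested genes, with a median log2 fold change of 0.029. With the length trend removed 19 rose (10.7%) and 23 fell (12.99%), near the 9.44% and 14.3% of all tested genes. Among Polycomb genes the directions were mixed. Of 12 PRC2 genes 3 rose and 3 fell, and with the trend removed 1 rose and 3 fell; the catalytic subunit EZH2 had 56.9, 62.2 and 56.3 CPM in sgKCNQ3, against 67.8, 68.2 and 65.3 CPM in NC, a fall of 0.20 (adjusted p = 0.00469) that was also called with the trend removed (-0.18, adjusted p = 0.014). PHF19, a PRC2 accessory subunit, fell by 0.18 and the histone chaperone RBBP4 rose by 0.27. Of 19 PRC1 genes 7 rose and 3 fell as counted, and 2 rose and 2 fell with the trend removed. The largest rise was that of CBX2, the chromobox subunit that compacts chromatin. CBX2 had 10.7, 9.82 and 10.5 CPM in sgKCNQ3, against 6.22, 6.76 and 6.84 CPM in NC, a rise of 0.65 (adjusted p = 4.62e-05). PHC2 fell by 0.30. PHC3, with a transcript of 12.02 kb, rose by 0.33 as counted and was not called with the trend removed (0.17, adjusted p = 0.0514).

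Of 17 methyltransferases with other symbols 3 rose (17.6%) and 2 fell (11.8%), and 3 rose and 3 fell with the trend removed. The counts of this and the following lists stand beside 14.0% higher and 15.1% lower over all tested genes. With the trend removed those shares were 9.44% and 14.3%. ASH1L rose by 0.39 and NSD3, which methylates H3K36, by 0.29. The arginine methyltransferase PRMT1 fell by 0.17 and was not called with the trend removed (-0.09, adjusted p = 0.0824). Of 14 COMPASS subunits, the partners of the KMT2 enzymes, 2 rose and 1 fell: HCFC1 rose by 0.31, BOD1L1 by 0.25, and the shared core subunit WDR5 fell by 0.14. BOD1L1 was not called with the trend removed (0.10, adjusted p = 0.334), which left 1 rise and 1 fall. Of 6 coactivator acetyltransferases 3 rose and 0 fell, all of them steroid receptor coactivators. NCOA2 had 30.2, 31.2 and 31.9 CPM in sgKCNQ3, against 22.8, 21.5 and 21.9 CPM in NC, a rise of 0.49. The other two, NCOA3 and NCOA1, rose by 0.19 and 0.23, and neither was called with the length trend removed. Of 26 SAGA, NuA4 and MOZ partners 3 rose and 4 fell, and 1 rose and 5 fell with the trend removed. JADE2 rose by 0.31, while ING3, of NuA4, fell by 0.33 and BRPF1, the scaffold that KAT6A and KAT6B bind, fell by 0.26. BRPF1 had 37.4, 38.8 and 34.8 CPM in sgKCNQ3, against 41.3, 47.7 and 44.0 CPM in NC.

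Of 23 deacetylase-complex genes 2 rose and 2 fell, and 1 rose and 3 fell with the trend removed; TBL1X, of the NCoR complex, rose by 0.25, MBD3, of NuRD, fell by 0.21 and DNTTIP1 fell by 0.19. DNTTIP1 was not called with the trend removed (-0.11, adjusted p = 0.123). Of 6 sirtuins 0 rose and 0 fell in either fit. All tested genes had 14.0% rises and 15.1% falls as counted, and 9.44% and 14.3% with the trend removed. Of 17 SWI/SNF partners outside the SMARC and ARID symbols 6 rose and 3 fell, 5 and 2 with the trend removed. BCL7A had 18.9, 18.7 and 18.5 CPM in sgKCNQ3, against 14.3, 12.5 and 13.9 CPM in NC, a rise of 0.46, and BICRAL, of the non-canonical BAF form, rose by 0.42. BCL11A, a zinc-finger subunit, had 2.70, 2.73 and 2.82 CPM in sgKCNQ3, against 1.36, 1.26 and 1.73 CPM in NC, a rise of 0.92. Of 19 tested ISWI and INO80 family genes 6 rose and 1 fell: BPTF, the large subunit of NURF, rose by 0.37, BAZ2A by 0.22, and the ATPase RUVBL2 fell by 0.20. With the trend removed 2 rose and 1 fell, and BAZ2A was not called.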

How the data were processed

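Poly(A) RNA of RBE cells was measured in 6 libraries, 3 sgKCNQ3 and 3 NC, whose titles give the group and replicate number. The authors deposited an estimated count of reads per gene, without normalization, for each library, per the file headers. The TPM values and FPKM values of the same libraries were made and deposited by the authors, per the file headers. GRCh38.p13 is the build named in the submitters' processing notes. No source used here names the aligner, the counter, or its handling of strand and of multiply mapped reads, so reads of overlapping or near-identical genes cannot be told apart.

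The estimated counts, of which 5.52% to 6.33% were not whole, were rounded. They were fitted in R 4.3.3 by edgeR 4.0.16 (filterByExpr with a minimum count of 10, TMM factors, robust quasi-likelihood fit, Benjamini-Hochberg adjustment over the 12565 genes kept of 16200, threshold 0.05). The filter removed 3635 genes. The biological coefficient of variation was 3.62%. CPM uses TMM-scaled library sizes. An SE is the log2 fold change divided by the square root of F, and 95% intervals use 1.96 SE. An exact permutation test of 3 against 3 libraries reaches no p smaller than 0.1 for a single gene, and calls here come from the fit across genes. Chi-square per degree of freedom between pairs of libraries was 1.63 to 4.17 within groups, above sampling noise, and 6.86 to 11.3 between groups, so each library was kept as a replicate.

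Transcript length came from the ratio of deposited counts to deposited FPKM, summed over libraries, and GC content from the longest protein-coding transcript in the GENCODE annotation, matched for all 86 genes. Each library's trend over log2 length (and GC) was fitted with a natural spline of 5 degrees of freedom and removed as an offset. Promoters are from RefSeq, matched by Entrez gene ID for 72 of the 84 tested genes. The scripts were tested on simulated data. Alternatives were other scalings (RLE, upper quartile, library size only), other tools (DESeq2 1.42.0, and limma 3.58.1 as voom on counts or as trend on log2(TPM + 1)), no filter on low counts or one at 2 CPM in 3 libraries, a replicate block, the length and GC corrections, and each library left out. A correction over GENCODE length was added after seeing the data.

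The genes, classes and partner lists were chosen with earlier results of these data known. Values per library are given for the 3 called genes of each class with the smallest p, and for others where a call changed with the length correction; up to 3 called genes with the smallest p are named per partner list. Other genes whose values are printed were picked after their values were seen. A gene of the partner lists is not reported here.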

Additional observations from a re-analysis of the deposited data

How the results depend on the processing

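Of the 29 called chromatin genes, all 29 kept their call under RLE scaling, limma-voom, no filter and the filter of at least 2 CPM; 28 kept it under library-size scaling, upper quartile scaling and the replicate block, 24 on TPM, 23 under DESeq2, 18 with the length trend or the length and GC trends removed, 17 with the GENCODE length trend removed and 14 under the replicate block with the length trend removed. With 1 library left out 23 to 28 kept it. ARID2, CHD6, CHD7, CHD9, KAT6A, KAT6B, KMT2E and SETD3 were called under all 19 alternatives. Replicate numbers do not pair the libraries: the deviations of same-numbered libraries from their group means correlated at 0.0078, -0.10 and 0.026, and the replicate block left 24 rises and 4 falls. Small changes are limited by 3 libraries a group, and a call near the threshold by any of these choices; the cause of each change below was not tested.

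With library size only, the median log2 fold change of the chromatin genes was 0.11, of KMT and SETD 0.084, KDM 0.046, KAT 0.22, HDAC 0.056, and SMARC and ARID 0.14; KMT and SETD falls were 0, HDAC rises 3 and CHD rises 7. Over all tested genes 2324 rose and 1280 fell with library size only. With upper quartile scaling the medians were 0.091 for all, 0.030 for KDM and 0.040 for HDAC. KMT and SETD then had 0 falls and HDAC 3 rises, while over all tested genes 2031 rose and 1545 fell. DESeq2 called 1111 rises and 1211 falls over all genes; it called 2 falls of chromatin genes, 0 in KMT and SETD and 1 in SMARC and ARID, and 0 KDM rises. In limma-voom the KDM median was -0.0018. Without a filter HDAC had 1 rise. SWI/SNF subunits alone had 1 fall. On log2(TPM + 1) 2588 of all tested genes rose. On log2(TPM + 1) 613 of all genes fell and KCNQ3 was at -0.15; no chromatin gene fell (0 in KMT and SETD, KDM, and SMARC and ARID), KDM rises were 4 and HDAC rises 3, and the medians were 0.13 for all, 0.095 for KMT and SETD, 0.059 for KDM, 0.25 for KAT, 0.10 for HDAC, 0.14 for SMARC and ARID and 0.18 for CHD.

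With the length trend removed 10 chromatin genes fell and the median was 0.0061; KMT and SETD had 3 rises and a median of 0.0051, KDM 0 rises, 4 falls and a median of -0.066, HDAC 2 rises, CHD 2 falls, and SMARC and ARID a median of 0.031. With length and GC trends removed 9 fell and the median was 0.033; KMT and SETD had 3 rises and 2 falls, KDM 1 rise, 3 falls and a median of -0.074, HDAC 1 rise, CHD 1 fall, and SMARC and ARID a median of 0.021. The replicate block with the length trend removed gave 946 rises over all genes and 13 among chromatin genes, with a median of 0.0064; KMT and SETD had 2 rises, 0 falls and a median of 0.0058, KDM 0 rises, 2 falls and a median of -0.066, HDAC 2 rises, SMARC and ARID 3 rises and a median of 0.031, and CHD 2 falls and a median of 0.071. With the GENCODE length trend removed, added after seeing the data, 16 rose and 9 fell with a median of 0.0054; KMT and SETD had 3 rises, 0 falls and a median of 0.024, KDM 1 rise, 4 falls and a median of -0.050, KAT 1 fall, HDAC 1 rise and a median of -0.034, SMARC and ARID 4 rises and a median of 0.039, and CHD 1 fall. Over all tested genes 1227 rose and 1848 fell with the GENCODE length trend removed, and 1507 fell under the replicate block with the length trend removed. The sign of the log2 fold change turned for 15 of the 84 genes with the length trend removed. It turned for 15 with length and GC trends removed, in both cases mostly without a call in either fit. Among genes called in 1 of the fits compared, signs turned for SETD5, at -0.12 with the length trend and -0.11 with length and GC trends removed, and, with both removed, for SETD2 (-0.12) and SMARCA5 (-0.12).

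With each library left out in turn, the chromatin genes had 21 to 26 rises, 3 to 4 falls and a median of 0.056 to 0.088. Over all tested genes these fits gave 1287 to 1710 rises and 1343 to 1761 falls. KMT and SETD had 0 to 1 falls and a median of 0.0052 (without NC replicate 1) to 0.070, KDM 0 to 2 rises and a median of 0.0095 to 0.026, and KAT 2 to 4 rises and a median of 0.16 to 0.21. HDAC had 0 to 1 rises and a median of -0.0022 (without NC replicate 1) to 0.026, and the SMARC and ARID median was 0.077 to 0.15.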

Other observations

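Outside the histone enzymes, the DNA methylation machinery and the bromodomain readers held more rises than falls as counted, and fewer rises with the length trend removed. Of all tested genes 14.0% rose and 15.1% fell as counted, and 9.44% rose and 14.3% fell with the length trend removed. The 2 lists had median transcript lengths of 4.91 kb and 6.23 kb, and 32.8% of all tested genes in the longest quintile rose as counted. Of 8 DNA methylation genes 3 rose and 0 fell, with a median log2 fold change of 0.23; with the length trend removed 1 rose and 2 fell, with a median of 0.15. UHRF1, which brings the maintenance methyltransferase to replicated DNA, had 47.3, 50.1 and 44.8 CPM in sgKCNQ3, against 41.5, 41.5 and 37.8 CPM in NC. It rose by 0.23 (adjusted p = 0.00386) as counted and by 0.21 (adjusted p = 0.0122) with the trend removed. TET1, an eraser of DNA methylation, was low, at 1.45, 1.71 and 1.44 CPM in sgKCNQ3 and 1.17, 0.695 and 0.895 CPM in NC, with a rise of 0.73 (adjusted p = 0.042) that was not called with the trend removed (0.57, adjusted p = 0.126). Of 10 tested bromodomain readers 6 rose and 1 fell as counted, and 1 rose and 1 fell with the trend removed. BRD3 rose by 0.24 (adjusted p = 3.03e-04) and was still called with the trend removed (0.15, adjusted p = 0.0154), while PHIP (0.33) and TRIM33 (0.25) rose as counted and were not called with the trend removed.

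Ratios between paralogues, which share a complex or an activity, were compared per length as ratios of TPM in 8 pairs chosen after values were seen, so they are given as a description with no test. In 3 pairs the groups did not overlap: ARID1B over ARID1A was 0.930 ± 0.0385 in sgKCNQ3 and 0.812 ± 0.0404 in NC, KMT2C over KMT2D was 0.908 ± 0.0258 in sgKCNQ3 and 0.838 ± 0.0341 in NC, and CHD4 over CHD3 was 1.45 ± 0.0426 in sgKCNQ3 and 1.33 ± 0.0086 in NC (SD, n = 3 each). In the other pairs the groups overlapped: HDAC2 over HDAC1, for example, was 0.715 ± 0.0098 in sgKCNQ3 and 0.732 ± 0.027 in NC, and SMARCA2 over SMARCA4 was 0.743 ± 0.0838 in sgKCNQ3 and 0.742 ± 0.041 in NC (SD, n = 3 each).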
